A study of Mus musculus with 5 samples.

Results

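The pore subunits of voltage-gated calcium channels are the genes described here: Cacna1a, Cacna1b, Cacna1c, Cacna1d, Cacna1e, Cacna1g, Cacna1h and Cacna1i. They were chosen by symbol as the members of this family expressed in brain, which makes 8 of the 32531 genes listed in the count files. RNA was measured by translating ribosome affinity purification (TRAP), in which ribosomes carrying an EGFP-tagged Rpl10a protein are pulled from a tissue homogenate with anti-EGFP antibodies and the attached RNA is sequenced. All mice were untreated adults that carried the Rbp4-Cre KL100 driver together with the Rosa26-LSL-EGFP/Rpl10a allele, in which Cre removes a stop cassette, so the tag is limited to cells that have expressed Cre. The labels set the groups apart by tissue, with 2 libraries of cerebral cortex and 3 of dentate gyrus. Sources used here do not give the exact age, the sex or the number of animals behind each library, and nothing says that replicates are separate animals. The p-values therefore measure library-to-library spread, which may be technical. Pull-down libraries only were analysed here, so the part of the signal that came from untagged cells was not measured.

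Each of these genes encodes the large subunit that forms the calcium-selective pore and senses voltage, and the gene decides the channel type. L-type channels (Cacna1c, Cacna1d) open on depolarization, those of Cacna1d at less depolarized voltages, sit mainly on soma and dendrites and signal to the nucleus. P/Q-type (Cacna1a) and N-type (Cacna1b) channels trigger transmitter release at nerve terminals. R-type channels (Cacna1e) act in dendrites, spines and some terminals. T-type channels (Cacna1g, Cacna1h, Cacna1i) open near the resting potential and support burst firing.

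RefSeq promoter windows on GRCm38.p6, running from 250 bases before to 50 bases after an annotated start, were found for 5 of the 8 members (8 windows), and not for Cacna1a, Cacna1g and Cacna1h. Printed here are windows of the genes that were higher in dentate gyrus (Cacna1e and the GC-rich window of Cacna1c, 1 of its 3) and of those that were higher in cortex (Cacna1i and Cacna1b), 5′ to 3′ on the gene's strand. Capitals mark exact matches on either strand. The letters searched were the cAMP response element TGACGTCA, the GC box GGGCGG, the site of Egr factors GCGNGGGCG, the E-box written as CAGCTG and that written as CAGATG, and TATAAA, the TATA box.
Cacna1e, chr1:154725871-154726170, minus strand: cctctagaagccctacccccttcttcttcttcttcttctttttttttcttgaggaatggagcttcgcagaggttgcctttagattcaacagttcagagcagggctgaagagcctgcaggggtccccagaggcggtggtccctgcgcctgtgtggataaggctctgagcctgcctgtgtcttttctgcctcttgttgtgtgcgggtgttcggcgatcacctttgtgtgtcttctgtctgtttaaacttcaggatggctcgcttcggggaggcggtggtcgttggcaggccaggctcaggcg
Cacna1c, chr6:119108446-119108745, minus strand: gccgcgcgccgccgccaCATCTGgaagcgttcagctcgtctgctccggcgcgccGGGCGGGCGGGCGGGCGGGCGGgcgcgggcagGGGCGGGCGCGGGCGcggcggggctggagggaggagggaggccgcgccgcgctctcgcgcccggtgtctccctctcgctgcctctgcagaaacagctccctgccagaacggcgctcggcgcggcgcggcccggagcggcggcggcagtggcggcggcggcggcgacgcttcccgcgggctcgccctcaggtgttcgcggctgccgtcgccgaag
Cacna1i, chr15:80286988-80287287, plus strand: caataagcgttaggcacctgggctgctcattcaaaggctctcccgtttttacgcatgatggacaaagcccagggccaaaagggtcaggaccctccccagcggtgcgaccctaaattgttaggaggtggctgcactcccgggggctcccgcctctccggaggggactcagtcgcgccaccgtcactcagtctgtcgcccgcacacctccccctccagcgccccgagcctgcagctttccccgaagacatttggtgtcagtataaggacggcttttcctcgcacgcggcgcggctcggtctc
Cacna1b, chr2:24763103-24763402, minus strand: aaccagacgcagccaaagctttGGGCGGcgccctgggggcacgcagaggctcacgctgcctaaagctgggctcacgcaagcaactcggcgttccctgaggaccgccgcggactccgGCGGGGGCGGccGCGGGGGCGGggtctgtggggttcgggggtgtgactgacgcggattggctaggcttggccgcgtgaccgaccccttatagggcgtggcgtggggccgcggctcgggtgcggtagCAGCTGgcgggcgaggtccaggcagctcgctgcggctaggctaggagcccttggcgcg
The Cacna1e and Cacna1i windows, from genes that differed between tissues in opposite directions, held none of these letters. The printed Cacna1c window held 6 overlapping or neighbouring GC boxes, 1 Egr match and 1 CAGATG. The Cacna1c windows not printed, each at 51.3% GC, held no GC box and no Egr match. The Cacna1b window held 3 GC boxes, 2 Egr matches that overlap them and 1 CAGCTG. The printed Cacna1e and Cacna1c windows lie inside the gene spans given below, so neither is at the outermost annotated start. Of 32817 distinct windows in the table, 35.6% hold GGGCGG, 5.56% GCGNGGGCG, 16.3% CAGCTG, 17.2% CAGATG, 13.6% TATAAA and 1.79% TGACGTCA. GC content was 55.3% for Cacna1e, 81.3% for Cacna1c, 62.7% for Cacna1i and 72.3% for Cacna1b, against a median of 52.7% over all windows. The matches describe these letters only, and no binding was measured.

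The libraries held 22600963 to 36837908 gene counts each, and marker genes fixed for each tissue followed the labels. Levels are given as counts per 1000000 gene counts after scaling by trimmed mean of M values (CPM, TMM). Each of 6 granule cell markers was more abundant in dentate gyrus, where their summed level was 1585 to 1857 CPM against 58.8 to 97.4 CPM in cortex. All 7 markers of cortical pyramidal neurons were higher in cortex, with sums of 1231 to 1369 CPM against 136 to 270 CPM. GABAergic neuron markers were also higher in cortex in 5 of 7 cases and higher in dentate gyrus in 1, with sums of 1004 to 1041 CPM against 202 to 233 CPM. Most of the cortex sum came from Sst (699.5 and 640.7 CPM). Gad1 went the other way, at 26.6 and 41.0 CPM in cortex and 71.6, 57.2 and 64.7 CPM in dentate gyrus. No glial or vascular list had more than 1 member called. In cortex replicate 1 the Purkinje cell genes Car8 and Pcp2 stood at 411 and 19.7 CPM, whereas replicate 2 of that tissue had 1.44 and 0.123 CPM. Dentate gyrus replicate 2 had a cortical pyramidal sum of 270 CPM, against 136 and 169 CPM in replicates 1 and 3. Of that list, Fezf2 was at 60.2 CPM there against 1.82 and 17.45 CPM, while Rorb was not higher there. Some fits below left out both of these libraries.

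The question was how the set of calcium channel genes in the pulled-down RNA differs between the tissues. R-type Cacna1e, L-type Cacna1c and T-type Cacna1h were each higher in dentate gyrus by slightly more than 2-fold. T-type Cacna1g and Cacna1i were each higher in cortex by more than 4-fold, and N-type Cacna1b by 1.47-fold. P/Q-type Cacna1a and L-type Cacna1d did not pass. With edgeR (quasi-likelihood F test, p-values adjusted by Benjamini-Hochberg over 14136 genes), 6 of the 8 members had an adjusted p under 0.05, 3 in each direction, where 21.3% of all tested genes did so (10.5% toward dentate gyrus and 10.8% toward cortex). Of these 6, Cacna1b passed narrowly (edgeR adjusted p 0.0478) and kept its call under 7 of 14 alternative fits. All 8 members passed the filter on low counts. Libraries of the tissues did not overlap for 7 of 8 members and for 50.1% of tested genes. The median log2 fold change of the members was -0.05, against 0.02 over all tested genes. In such bulk RNA, a smaller number of cells of a type cannot be told apart from less RNA per cell.

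**Figure D1:**
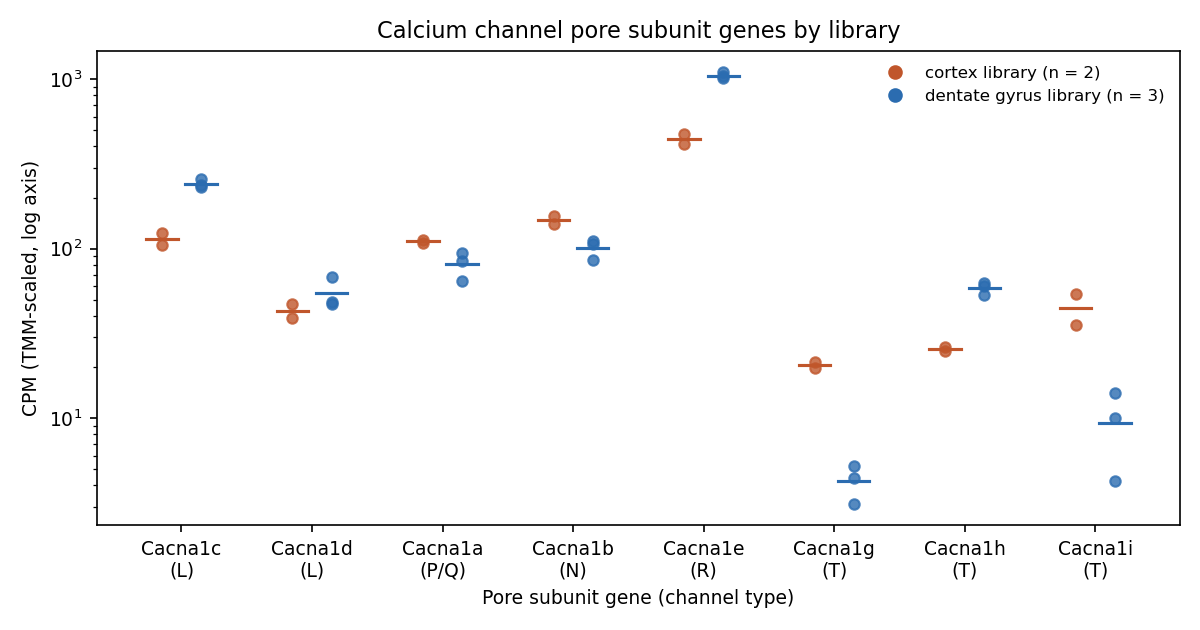
TMM-scaled CPM (log axis) of each pore subunit gene in the 2 cortex and 3 dentate gyrus libraries, with short lines at the tissue means and the channel type under each symbol. Cacna1e is the highest gene in every library, and Cacna1d is the only gene whose tissues overlap.

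Cacna1e (chromosome 1, 154390731 to 154884501, minus strand) encodes the R-type pore and had the most reads of the 8 genes in all 5 libraries, also per kb of exon. Its level was 472 and 415 CPM in the cortex libraries (replicates 1 and 2, the order used throughout), and 1009, 1036 and 1096 CPM in those of dentate gyrus (replicates 1 to 3). The lowest dentate gyrus library was thus above the highest cortex library by more than the spread within either tissue. The means were 444 ± 40.4 CPM (SD, n = 2) and 1047 ± 44.6 CPM (SD, n = 3). The log2 fold change, dentate gyrus minus cortex, was 1.24 (SE 0.11, 95% interval 0.99 to 1.48, adjusted p 4.99e-05), or 2.36-fold. It had the smallest adjusted p among the members.

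Among L-type genes, Cacna1c (chromosome 6, 118587240 to 119196418, minus strand), the main L-type gene of brain and heart, stood at 105 and 123 CPM in the cortex libraries. The dentate gyrus libraries had 256, 232 and 237 CPM. Every dentate gyrus value was above both cortex values, with a log2 fold change of 1.08 (SE 0.15, adjusted p 0.000651), or 2.12-fold. The other L-type gene, Cacna1d (chromosome 14, 30039939 to 30491455, minus strand), opens at less depolarized voltages than Cacna1c. It had 39.0 and 47.1 CPM in cortex and 46.9, 48.6 and 68.1 CPM in dentate gyrus. These groups overlapped, and the log2 fold change of 0.34 had a 95% interval of -0.22 to 0.90 (adjusted p 0.392). The interval covers changes of either sign, so a like level in the tissues was not shown. Cacna1c made up 61.2% ± 0.5 (SD, n = 2) of the summed L-type level per kb of exon in cortex and 72.6% ± 4.68 (SD, n = 3) in dentate gyrus. Exons of Cacna1d and of the choline dehydrogenase gene Chdh overlap by 589 bases on opposite strands, but Chdh had only 1 to 19 counts per library.

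The P/Q-type and N-type genes of nerve terminals had lower values in dentate gyrus. Cacna1a (chromosome 8, 84388440 to 84640246, plus strand) was at 108 and 112 CPM in cortex and at 84.7, 64.6 and 93.6 CPM in dentate gyrus. No dentate gyrus value reached the cortex values, but the spread among dentate gyrus libraries was wide. Its log2 fold change of -0.44 (SE 0.20, 95% interval -0.88 to -0.0006) had an adjusted p of 0.150 and did not pass. Cacna1b (chromosome 2, 24603887 to 24763152, minus strand) had 140 and 156 CPM in cortex and 85.1, 106 and 111 CPM in dentate gyrus. The tissues were separate, and the log2 fold change of -0.55 (SE 0.17) had an adjusted p of 0.0478. The call was lost on leaving out any single library (adjusted p 0.0572 to 0.210), with a replicate block (adjusted p 0.0611) and with the pair cortex replicate 1 and dentate gyrus replicate 2 left out (0.141). Exons of Cacna1a overlap the antisense gene Gm16183 by 435 bases, and that gene had no row in the count files.

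The 3 T-type genes moved in opposite directions. Cacna1g (chromosome 11, 94408391 to 94474198, minus strand), the T-type gene of thalamic relay neurons, was at 19.8 and 21.4 CPM in cortex and at 3.12, 5.24 and 4.42 CPM in dentate gyrus. Counts behind these values were 695 and 521 in cortex and 113, 118 and 113 in dentate gyrus. Cortex values were about alike and all dentate gyrus values were far lower, with a log2 fold change of -2.27 (SE 0.42, adjusted p 0.00395), or 4.84-fold higher in cortex. Cacna1i (chromosome 15, 80287238 to 80398279, plus strand), whose channel inactivates more slowly than those of the other T-type genes, was at 35.2 and 53.7 CPM in cortex. Its dentate gyrus values were 14.0, 4.26 and 9.94 CPM, the widest relative spread of any member. The tissues did not overlap, and the log2 fold change was -2.24 (SE 0.45, adjusted p 0.00635), or 4.72-fold higher in cortex. Without cortex replicate 2 the Cacna1i adjusted p was 0.0572.

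Cacna1h (chromosome 17, 25374285 to 25433783, minus strand), the T-type gene whose channel is the most sensitive to block by nickel and zinc, went the other way. It was at 24.7 and 26.1 CPM in cortex and at 62.7, 53.4 and 59.8 CPM in dentate gyrus. Within each tissue the values were close, and all dentate gyrus values were above the cortex values. The log2 fold change was 1.21 (SE 0.23, adjusted p 0.00448), or 2.31-fold. Leaving out both cortex replicate 1 and dentate gyrus replicate 2 gave Cacna1h an adjusted p of 0.0509. Its exons overlap those of the tryptase gene Tpsg1 by 158 bases on the other strand, and Tpsg1 had 0 counts in all libraries.

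**Figure D2:**
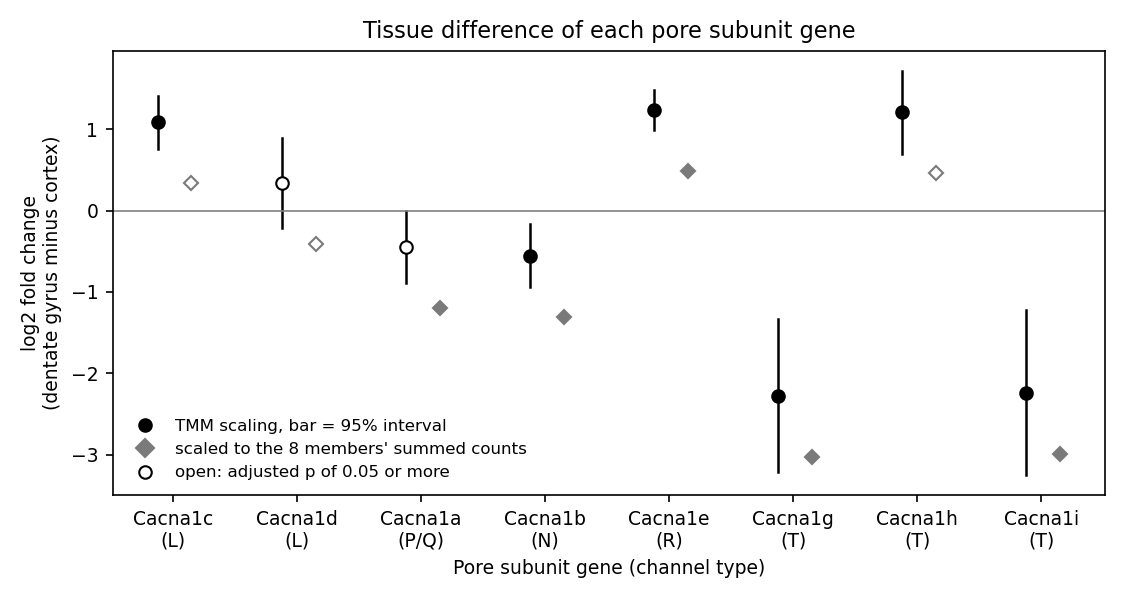
Log2 fold change (dentate gyrus minus cortex) of each member over 2 cortex and 3 dentate gyrus libraries; circles with bars give the TMM-scaled fit and its 95% interval, diamonds the fit after scaling to the summed counts of the 8 members, and open symbols an adjusted p of 0.05 or more. Cacna1e (1.24), Cacna1h (1.21) and Cacna1c (1.08) lie above zero in the TMM-scaled fit and Cacna1g (-2.27) and Cacna1i (-2.24) far below.

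The make-up of the T-type genes differed between the tissues. The summed T-type level was 79.8 and 101 CPM in cortex and 79.8, 62.9 and 74.2 CPM in dentate gyrus. The highest dentate gyrus sum lay almost on the lower cortex sum, and the tissue means differed 1.25-fold. Per kb of exon, Cacna1h held 31.4% and 26.2% of the T-type level in cortex but 78.8%, 85.2% and 80.9% of it in dentate gyrus. Cacna1i held 44.3% and 53.2% in cortex and 17.4%, 6.74% and 13.3% in dentate gyrus. Cacna1g held 24.2% and 20.6%, and 3.78%, 8.06% and 5.76%. The leading T-type gene was thus Cacna1i in each cortex library and Cacna1h in each dentate gyrus library, and none of the 3 shares overlapped between tissues. With 2 against 3 libraries the exact two-sided permutation test, run by doubling the smaller tail, cannot go below 0.2. That is the p it gave for each of these 3 shares.

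**Figure D3:**
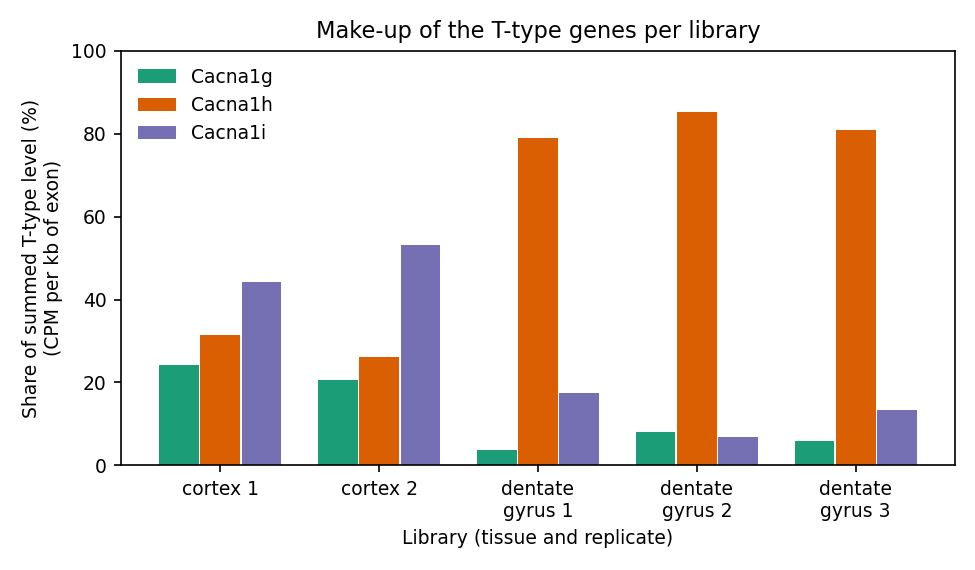
Share of the summed T-type level (CPM per kb of exon, in percent) held by Cacna1g, Cacna1h and Cacna1i in each library. Cacna1h holds 78.8% to 85.2% in the 3 dentate gyrus libraries and 26.2% to 31.4% in the 2 cortex libraries.

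Markers of other cells moved with some members. GABAergic neurons and thalamic relay neurons are known for T-type channels. The GABAergic list was higher in cortex, like Cacna1g and Cacna1i, with the values given above. No GABAergic marker was at 0 in all libraries, but Vip was at 0 in dentate gyrus replicate 3 and Slc32a1 was at 5.10 and 7.09 CPM in cortex and at 0.138 to 2.58 CPM in dentate gyrus. Of 5 thalamic markers, 1 was called, with more in cortex. Their summed level was 473 to 571 CPM in cortex and 77.1 to 119 CPM in dentate gyrus, most of it from Rora (527 and 436 CPM in the cortex libraries). Slc17a6 values were also higher in cortex, at 39.8 and 28.8 CPM against 0.386, 19.4 and 8.18 CPM. Lef1 values were lower in cortex, at 0.114 and 0.574 CPM against 0.80, 2.13 and 0.70 CPM. Prkcd (0.83 and 1.64 CPM in cortex, 0.82 to 3.20 CPM in dentate gyrus) and Tcf7l2 (2.88 and 5.86 CPM, 0.33 to 15.89 CPM) overlapped between tissues. The part of these cells in the Cacna1g and Cacna1i difference was not tested. Purkinje cells are rich in Cacna1a and Cacna1g. Between cortex replicate 1, which held Car8 at 411 CPM, and cortex replicate 2, Cacna1a differed as 108 against 112 CPM and Cacna1g as 19.8 against 21.4 CPM. The part of Purkinje cells in the Cacna1a and Cacna1g levels was not tested. Of 4 tested Purkinje markers, 4 were called higher in cortex. Pvalb stands both on this list and on the GABAergic list. The sum of the 5 listed Purkinje markers was 977 to 1334 CPM in cortex and 287 to 304 CPM in dentate gyrus, most of it from Itpr1. None was at 0 in all libraries. Itpr1 stood at 839 and 962 CPM in cortex and at 287, 283 and 301.5 CPM in dentate gyrus. Ebf2, in contrast, reached 36.8 CPM in replicate 1 of cortex only. Its 2.05 CPM in replicate 2 lay within the dentate gyrus values (1.93, 3.46 and 1.21 CPM). The high Car8 level was likewise limited to replicate 1. For Ebf2 and Car8 the tissue difference thus rested mainly on that library.

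Levels of different genes were compared per kb of union exon length in GENCODE M21, which ranges from 9.76 kb for Cacna1h to 25.23 kb for Cacna1e. In cortex the order was Cacna1e (17.6 ± 1.6 CPM per kb, SD, n = 2), Cacna1b (14.9 ± 1.19), Cacna1a (9.64 ± 0.21), Cacna1c (5.38 ± 0.603), Cacna1i (4.51 ± 1.32), Cacna1d (3.41 ± 0.454), Cacna1h (2.6 ± 0.1) and Cacna1g (2.03 ± 0.109). The ranges of Cacna1c and Cacna1i overlapped, as did those of Cacna1i and Cacna1d, while the other neighbours were separate. For dentate gyrus the order was Cacna1e (41.5 ± 1.77 CPM per kb, SD, n = 3), Cacna1c (11.4 ± 0.592), Cacna1b (10.1 ± 1.38), Cacna1a (7.09 ± 1.3), Cacna1h (6.0 ± 0.49), Cacna1d (4.32 ± 0.934), Cacna1i (0.952 ± 0.494) and Cacna1g (0.42 ± 0.106). Cacna1c and Cacna1b overlapped there, as did Cacna1a and Cacna1h, and Cacna1i and Cacna1g. Cacna1c was above Cacna1b in 3 of 3 dentate gyrus libraries and below it in the cortex libraries. The order depends on the length used. Per kb of coding length, which is 6.54 to 7.14 kb in all 8 genes, Cacna1e stood far higher than the rest, at 65.1 ± 5.92 (SD, n = 2) and 154 ± 6.55 (SD, n = 3) CPM per kb, and Cacna1c was above Cacna1a in cortex also.

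The share of each channel type in the summed pore subunit level, per kb of exon, differed between the tissues for all 5 types without overlap of libraries. These are shares of RNA, not of current. All 5 are parts of the same sum, so a higher R-type share lowers the others by itself. The separations of the 5 types are thus not independent results. R-type held 32.1% and 26.7% in cortex but 50.05%, 52.2% and 49.98% in dentate gyrus. N-type held 24.1% and 25.5% in cortex against 10.7%, 13.6% and 12.8%. P/Q-type held 16.3% and 15.8% against 9.28%, 7.2% and 9.43%. P/Q-type and N-type together thus went from 40.8% ± 0.71 (SD, n = 2) to 21.02% ± 1.15 (SD, n = 3). L-type held 13.8% and 15.4% in cortex against 19.8%, 18.8% and 19.0%. T-type held 13.8% and 16.6% against 10.2%, 8.16% and 8.71%. The exact two-sided permutation p was 0.2 for each type, and 0.2 after adjustment over the 5 types. As run here, the test doubles the smaller tail, and 0.2 is the smallest p it can give with these libraries. With coding length in place of exon length the R-type share was 47.0% ± 4.67 (SD, n = 2) in cortex and 65.6% ± 1.13 (SD, n = 3) in dentate gyrus, and the L-type difference shrank from 4.6 to 1.97 percentage points.

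**Figure D4:**
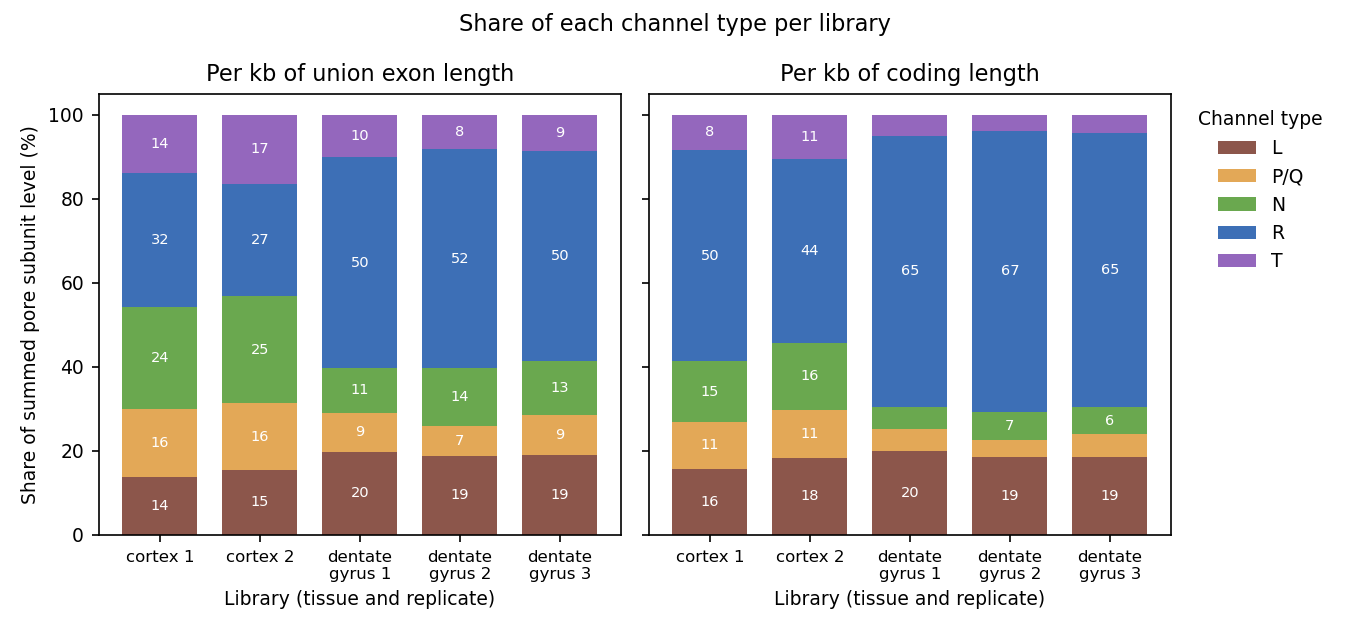
Share of each channel type in the summed level of the 8 pore subunit genes (percent) in each library, per kb of union exon length on the left and per kb of coding length on the right. The R-type share is higher and the N-type and P/Q-type shares are lower in all 3 dentate gyrus libraries than in both cortex libraries in both panels.

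The summed level of the 8 genes was 944 and 955 CPM in cortex and 1561, 1551 and 1679 CPM in dentate gyrus, 1.68-fold higher on average, with no overlap (exact permutation p 0.2). Cacna1e accounted for most of that gap. The other 7 genes summed to 472 and 539 CPM in cortex and 552, 515 and 583 CPM in dentate gyrus, which overlap (exact permutation p 0.4). A fit with libraries scaled to the summed counts of the 8 genes, added after the data were seen, reads each gene relative to the family. This scaling moved the median of all tested genes to -0.73. The sum contains each member, and Cacna1e alone held on average 46.76% of it in cortex and 65.57% in dentate gyrus. The higher Cacna1e level thus lowers the values of the other members on this scale by itself. The p-values that follow are therefore not separate results for each gene, and Cacna1a passed on this scale only. Relative to the family, Cacna1e was higher in dentate gyrus (log2 0.49, adjusted p 0.00898) and Cacna1a (-1.20, adjusted p 0.00109), Cacna1b (-1.31, adjusted p 0.000354), Cacna1g (-3.02, adjusted p 0.000381) and Cacna1i (-2.99, adjusted p 0.000861) were lower. Cacna1c (0.34, adjusted p 0.121) and Cacna1h (0.46, adjusted p 0.154) did not pass on that scale, and Cacna1d had a log2 value of -0.42 (adjusted p 0.201) there, the opposite sign to its TMM-scaled value.

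Genes with a pattern like that of the members with the smallest adjusted p in each direction were then read. Likeness was the root mean square difference of centred log2 CPM over the 5 libraries, among 9914 tested genes whose mean count reached 100. Closest to Cacna1e were Tmem106b, a lysosomal membrane protein gene (0.03), Palm2, a paralemmin gene (0.039), and Camta1, a calmodulin-binding transcription activator gene (0.052). Tmem106b was at 179 and 167 CPM in cortex and at 392, 393 and 428 CPM in dentate gyrus. Of the other members, Cacna1h (0.123) and Cacna1c (0.170) were nearest to Cacna1e. Closest to Cacna1g were Lingo1, a neuronal leucine-rich repeat membrane protein gene (0.076), Nyap2, an adaptor of phosphoinositide 3-kinase (0.103), and Arhgap33, a GTPase-activating protein gene (0.110). Lingo1 was at 458 and 422 CPM in cortex and at 65.5, 108 and 92.2 CPM in dentate gyrus. Cacna1i was the nearest member to Cacna1g, at 0.790.

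The remaining 2 pore genes of the family were close to absent. Cacna1s, the skeletal muscle L-type gene, had 0 counts in every library, which allows up to 0.0814 to 0.133 CPM at a floor of 3 counts. Cacna1f, the retinal L-type gene, had 5 counts in cortex replicate 2, 1 in dentate gyrus replicate 3 and 0 in the other libraries. In a list of these and the NALCN sodium leak and CatSper channels, 4 of 9 genes were tested and 0 were called by edgeR, 0 with an unadjusted p under 0.05, and 0 by DESeq2 or limma voom. Nalcn was at 83.3 and 97.2 CPM in cortex and at 81.8, 95.03 and 109 CPM in dentate gyrus, with overlapping libraries.

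Auxiliary subunits bring the pore to the membrane and tune its gating. Of 8 tested, 2 passed with more in dentate gyrus, 3 with more in cortex, at a median log2 fold change of -0.45. Over all tested genes, 10.5% passed with more in dentate gyrus and 10.8% with more in cortex, at a median of 0.02. Cacna2d2, an α2δ subunit gene, was at 36.6 and 20.1 CPM in cortex and at 4.72, 3.37 and 3.91 CPM in dentate gyrus (log2 -2.82, adjusted p 0.000974). Cacnb4, a β subunit gene, was at 976 and 953 CPM in cortex and at 608, 610 and 471 CPM in dentate gyrus (log2 -0.78, adjusted p 0.00213). Cacnb2 was at 203 and 219 CPM against 381, 398 and 335 CPM (log2 0.82, adjusted p 0.00183). None of these 3 genes overlapped between tissues, which also held for 50.1% of all tested genes. Without cortex replicate 2 the list had 3 calls in place of 5, and with both cortex replicate 1 and dentate gyrus replicate 2 left out it had 1, when Cacna2d2 (adjusted p 0.0580) and Cacnb2 (0.0505) did not pass.

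Of 11 tested modulators that bind the channels, 3 were called higher in each tissue. Over all tested genes, the shares called were 10.5% toward dentate gyrus and 10.8% toward cortex. Stac2, whose protein slows the inactivation of L-type channels, was at 305 and 315 CPM in cortex and at 14.2, 18.6 and 10.8 CPM in dentate gyrus. Its log2 fold change of -4.42 (SE 0.23, adjusted p 2.26e-06) was opposite in sign to that of the L-type gene Cacna1c. Dpysl2 (CRMP2), a partner of N-type channels, was at 372 and 372 CPM in cortex and at 218, 175 and 190 CPM in dentate gyrus (log2 -0.94).

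A list of genes for proteins that hold P/Q-type and N-type channels at release sites, or sense the calcium they admit, had mostly lower RNA levels in dentate gyrus where called. Of 19 tested, 8 had called levels higher in cortex, 2 the reverse, with a median log2 fold change of -0.64. Over all tested genes, 10.8% were called higher in cortex and 10.5% the reverse, with a median of 0.02. Syt1, the calcium sensor of fast release, was at 1710 and 1644 CPM in cortex and at 842, 861 and 930 CPM in dentate gyrus (log2 -0.93). Snap25 fell by 0.76 on the log2 scale. Erc2, an active zone scaffold gene, went the other way, at 445 and 426 CPM against 818, 938 and 877 CPM (log2 1.01). The list had 6 calls without cortex replicate 2 and 5 with both cortex replicate 1 and dentate gyrus replicate 2 left out.

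A further list held genes that carry calcium signals to the nucleus. Of 12 tested, 7 passed as higher in dentate gyrus, 2 as lower there, with a median log2 fold change of 0.80. Over all tested genes, 10.5% passed as higher there and 10.8% as lower, with a median of 0.02. This list and the others above were chosen with earlier results of these data known, so their counts are not independent of the data. Ppp3ca, the calcineurin catalytic subunit gene, was at 1322 and 1402 CPM in cortex and at 7202, 7314 and 7402 CPM in dentate gyrus (log2 2.42, SE 0.08). Ppp3r1, its regulatory subunit gene, was also higher in dentate gyrus (log2 1.17, SE 0.08). The nuclear kinase gene Camk4 was lower there, at 104, 116 and 118 CPM against 602 and 598 CPM (log2 -2.41, SE 0.12). Among 5 tested calcium-activated potassium channel genes, which open on calcium entering through these pores, edgeR called 0, with 3 at an unadjusted p under 0.05, while DESeq2 called 3 and limma voom 1, all higher in cortex. Kcnma1 was at 388 and 392 CPM in cortex and at 251, 342 and 292 CPM in dentate gyrus.

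**Figure D5:**
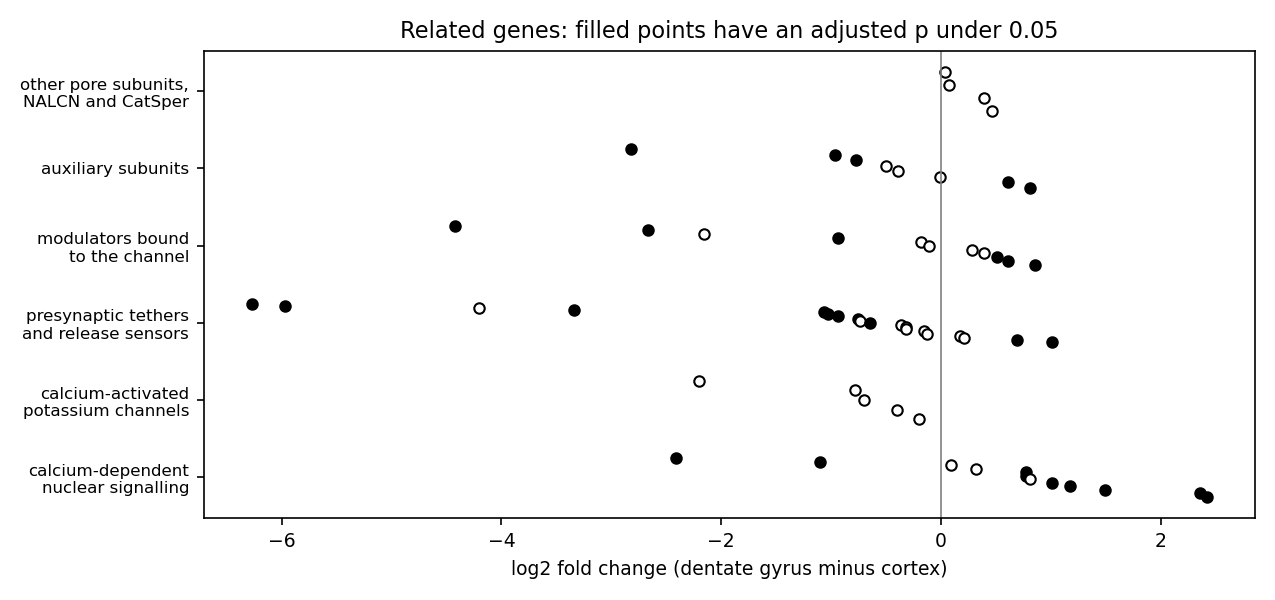
Log2 fold change (dentate gyrus minus cortex) of each tested gene in 6 lists related to calcium channels, 1 point per gene, filled where the adjusted p was under 0.05. The list of calcium-dependent nuclear signalling holds 7 filled points above zero and 2 below, and the list of presynaptic tethers and release sensors 2 above and 8 below. Of all tested genes, 21.3% had an adjusted p under 0.05.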

How the data were processed

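The authors deposited 1 table of raw counts for each library. Per the submitters' processing notes, STAR 2.0.0e and HTSeq were used on mm10. Annotation and strand setting were not given in the sources used here, so overlapping antisense genes may share reads. Rows that name no gene were left out: reads without a feature were 10.59% to 14.83% of counted reads, non-unique reads 25.03% to 31.76% and ambiguous reads 1.81% to 1.87%. No library repeated another of its tissue (chi-square per degree of freedom 42.4 to 58.6). Counts were fitted on tissue alone with edgeR 4.0.16 in R 4.3.3 (TMM, filterByExpr, quasi-likelihood F test), which was tested on simulated data, and SEs were derived from the F statistic. Shares were compared by exact permutation tests. Named genes were all members, the 3 called genes of each list with the lowest adjusted p, and the 3 genes most like Cacna1e and Cacna1g, leaving out predicted loci, small RNAs and pseudogenes. A gene that this rule names is not reported here. Nalcn, Kcnma1, Cacna1f, Cacna1s, overlapping genes and markers were named after their values were seen. Members and lists were chosen with earlier results of these data known. DESeq2 1.42.0, limma voom (limma 3.58.1), other scalings and filters, robust dispersion, a replicate block and fewer libraries served as alternatives. Floors cover counting error only.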

Additional observations from a re-analysis of the deposited data

How the results depend on the processing

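Cacna1c, Cacna1e and Cacna1g kept their direction and their calls under all 14 alternatives with a scaling over all genes, Cacna1h and Cacna1i under 13 of 14 and Cacna1b under 7 of 14; Cacna1a and Cacna1d were called under none. Relative to the summed counts of the 8 genes, Cacna1d turned to -0.415. Members called numbered 6, 4 to 5 on leaving out single libraries, and 5 with a replicate block, which changed no member's call but that of Cacna1b. The replicate numbers were not taken as pairs, because the labels give no shared animal. Deviations of same-numbered libraries from their tissue means correlated at -0.004 and -0.016. With 2 cortex libraries, their deviations mirror each other, so these correlations do not decide whether animals were shared. All genes called numbered 3009, 1886 to 2775 without single libraries, 1578 with both cortex replicate 1 and dentate gyrus replicate 2 left out, and 2237 with a replicate block. Auxiliary subunits called numbered 5, 3 to 5 without single libraries and 1 without both libraries; presynaptic genes 10, 6 to 9 and 5. Calcium-activated potassium channel genes called numbered 0, 1 with no filter, 3 by DESeq2, 1 by limma voom, and 0 to 1 without single libraries. The fits with fewer libraries have less power by construction; the cause of the other changes was not tested. The L-type share difference of 4.6 percentage points was 2.01 with no length correction and 1.97 by coding length, and the N-type difference of -12.4 was -9.29 and -9.13, because annotated exon lengths differ. The summed difference of 647.51 CPM was 44.45 CPM without Cacna1e. Shares from RefSeq protein lengths were not run, and GENCODE coding lengths took their place. Depth limits Cacna1g and Cacna1i most among the members, at 113 to 118 and at 96 to 506 counts per dentate gyrus library.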
